A study of Mus musculus with 4 samples.

Results

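Metallothioneins and the carriers that move zinc and manganese across liver cell membranes were described in RNA-seq of livers from wild-type (WT) and *Usp21* knockout (KO) mice. The 8 genes *Mt1*, *Mt2*, *Mtf1*, *Slc30a1*, *Slc30a10*, *Slc39a4*, *Slc39a8* and *Slc39a14* were chosen by symbol from the 35739 genes of the deposited TPM table, and all 8 passed the filter of a mean of at least 1 TPM. Expression was measured in WT replicates 2 and 3 and in *Usp21* KO replicates 1 and 3, which gives 2 libraries per genotype. The KO mice carried a constitutive deletion of *Usp21* exons 3 and 4 on a targeted allele. The allele was made in embryonic stem cells of a strain other than B6. Both genotypes were littermates, kept on a normal diet. They came from crosses between B6 mice and carriers of the allele on a mixed background of B6 and the stem cell strain. The methods give one age range for all experimental mice, and the sources used here give no sex, feeding state or hour of sampling for a library. They do not state whether a library came from 1 animal or from a pool. The limma p-values weigh a difference against the spread between libraries, moderated by that of all tested genes. The spread between animals is not known. TPM, a share of all transcripts, is corrected for transcript length, so levels of different genes can be compared within a library, but it keeps no record of depth.

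Metallothioneins are small cysteine-rich proteins that bind zinc and copper and act as a buffer for these metals in liver. *Mt1* and *Mt2* are switched on by MTF-1, the product of *Mtf1*, which binds short metal response elements near the gene start when free zinc rises, and also by glucocorticoids, inflammatory cytokines and fasting. *Slc30a1* encodes the zinc exporter ZnT1 of the plasma membrane, another target of MTF-1, and *Slc30a10* a manganese exporter. *Slc39a14* (ZIP14) and *Slc39a8* (ZIP8) take up zinc and manganese, ZIP14 being induced in liver by interleukin-6, and *Slc39a4* (ZIP4) is best known as the zinc importer of the intestine.

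The gene starts of both metallothioneins and of *Slc30a1*, named above as targets of MTF-1, are shown. Matches to the metal response element, searched on both strands as TGCACNC or TGCGCNC, are printed in capitals. The start of *Slc30a10*, which also held matches, is not shown. Each stretch runs from 250 bases before to 30 bases after the RefSeq start on the plus strand of GRCm38.p6, at chr8:94178839-94179118 for *Mt1*, chr8:94172368-94172647 for *Mt2* and chr1:191906531-191906810 for *Slc30a1*.
Mt1: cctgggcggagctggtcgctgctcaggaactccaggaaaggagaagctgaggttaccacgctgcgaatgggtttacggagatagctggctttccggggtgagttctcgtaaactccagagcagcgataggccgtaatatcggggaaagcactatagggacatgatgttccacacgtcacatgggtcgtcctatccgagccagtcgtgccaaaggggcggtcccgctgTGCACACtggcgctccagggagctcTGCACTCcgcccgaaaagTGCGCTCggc
Mt2: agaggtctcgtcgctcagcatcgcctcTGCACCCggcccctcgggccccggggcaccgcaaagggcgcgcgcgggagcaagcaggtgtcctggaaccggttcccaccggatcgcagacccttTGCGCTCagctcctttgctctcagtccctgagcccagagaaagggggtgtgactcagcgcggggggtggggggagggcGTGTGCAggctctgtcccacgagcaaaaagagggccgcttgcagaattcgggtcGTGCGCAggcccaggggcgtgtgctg
Slc30a1: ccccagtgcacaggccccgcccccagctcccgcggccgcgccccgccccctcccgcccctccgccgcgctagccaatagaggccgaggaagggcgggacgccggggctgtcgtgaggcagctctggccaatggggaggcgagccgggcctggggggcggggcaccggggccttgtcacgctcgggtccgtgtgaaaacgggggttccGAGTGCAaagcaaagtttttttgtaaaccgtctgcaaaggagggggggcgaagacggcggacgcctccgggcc

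RefSeq windows were found for 6 of the 8 genes. In the full windows, which reach 50 bases past the start, the core matched 4 times for *Mt2*, 3 times for *Mt1*, 3 times for *Slc30a10* (of which a pair on opposite strands overlapped) and 2 times for *Slc30a1*, the second beginning 31 bases past the start. *Mtf1* held 0 matches, and of the windows of *Slc39a8* one held 1 match and the other 0. Of all 32851 windows, 25.7% held at least 1 match, 7.11% at least 2, 1.97% at least 3 and 0.517% at least 4. The antioxidant response element core TGACNNNGC was found once each for *Mt2*, *Slc30a1* and *Slc39a8* and in 12.4% of all windows, and the match of *Mt2* did not overlap a metal response element. The glucocorticoid receptor half-site AGAACA was found once, for *Mtf1*, and in 19.0% of all windows. These matches describe the letters only, and binding was not measured. The windows follow the annotated RefSeq starts, and sites outside them were not searched.

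Both metallothioneins varied more between libraries of the same genotype than between genotypes. *Mt1* (ENSMUSG00000031765, chromosome 8, 94179082 to 94180327 on GRCm38) stood at 216 TPM in WT replicate 2, 890 TPM in WT replicate 3, 520 TPM in KO replicate 1 and 137 TPM in KO replicate 3. *Mt2* (ENSMUSG00000031762, chromosome 8, 94172664 to 94173568) stood at 106 TPM, 599 TPM, 328 TPM and 89.3 TPM in the same order. WT replicate 3 was the highest and KO replicate 3 the lowest for both genes, so that the KO values overlapped the WT values.

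The WT mean of *Mt1* was 553 ± 477 TPM and the KO mean 329 ± 271 TPM (SD, n = 2 per genotype), a log2 difference of -0.71 with a standard error of 0.85 (limma, adjusted p = 0.762). For *Mt2* the means were 353 ± 349 TPM and 209 ± 169 TPM, a log2 difference of -0.56 with a standard error of 0.94 (limma, adjusted p = 0.837). The 95% interval of the *Mt1* difference ran from -2.82 to 1.40 and that of *Mt2* from -2.90 to 1.78. Both intervals reached past 2-fold in either direction, so changes of that size were not excluded. The direction rested on single libraries: without WT replicate 3 the log2 difference was 0.31 for *Mt1* and 0.69 for *Mt2*, and without KO replicate 3 it was 0.24 and 0.38.

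Within a genotype the higher library exceeded the lower by 4.12 times in WT and 3.79 times in KO for *Mt1*, and by 5.65 and 3.67 times for *Mt2*. The pooled SD within genotypes was 1.40 for *Mt1* and 1.55 for *Mt2* on the log2(TPM + 1) scale, against a median of 0.23 over the 9581 tested genes. A larger SD was found in 103 tested genes (1.08%) for *Mt1* and in 72 (0.751%) for *Mt2*. Of the 822 abundant genes (mean TPM of 100 or more), 16 exceeded *Mt1* and 12 exceeded *Mt2*. By TPM, *Mt1* ranked between 111 and 610 within a library and *Mt2* between 152 and 881.

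**Figure D1:**
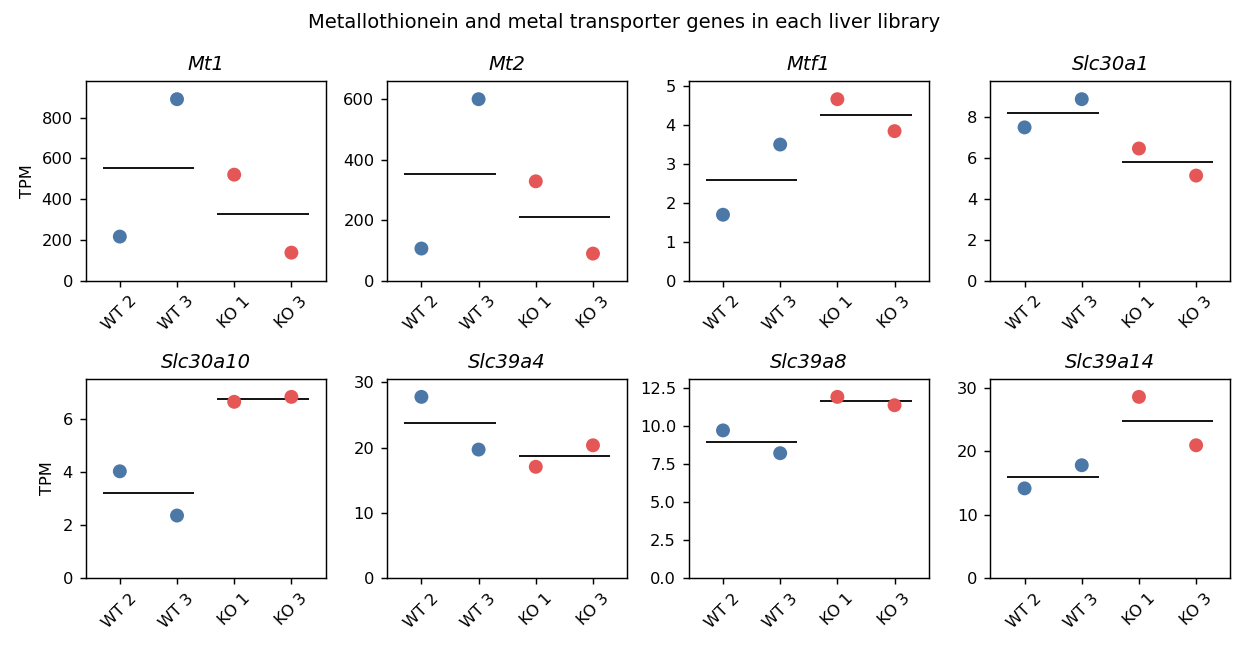
TPM of the 8 genes in each library (points, WT blue, KO red) with the mean of each genotype (black line), each panel on its own linear axis from 0. For *Mt1* and *Mt2* each genotype has a high and a low library, whereas both KO points of *Mtf1*, *Slc30a10*, *Slc39a8* and *Slc39a14* lie above, and both of *Slc30a1* below, the WT points.

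The metallothioneins moved together across the 4 libraries. The ratio of *Mt1* to *Mt2* TPM was 2.04 and 1.48 in WT replicates 2 and 3 and 1.58 and 1.54 in KO replicates 1 and 3, a far narrower range than that of either gene. None of the sequence of *Mt1* was shared: 0 of the 1273 stretches of 31 bases in the *Mt1* transcripts occurred in transcripts of another gene. Of the 573 such stretches of *Mt2*, 58.1% also occurred, on either strand, in transcripts of *Gm45774* or *Pip5k1a*. *Gm45774* is annotated as an antisense gene that overlaps *Mt2* (chromosome 8, 94170748 to 94173412).

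The tested genes nearest in pattern were ranked by the root mean square difference of log2(TPM + 1), centred on each gene's mean over the 4 libraries. *Mt2* was the nearest of 9580 genes to *Mt1* and *Mt1* the nearest to *Mt2* (0.18 on the log2 scale, where the median gene stood at 1.07 and 1.15). Next came *Angptl8* (0.24 from *Mt1*), an insulin- and feeding-induced inhibitor of lipoprotein lipase made by liver, and *Socs3* (0.29 from *Mt1* and 0.26 from *Mt2*), an inhibitor of cytokine signalling. *Angptl8* stood at 19.1 TPM and 76.7 TPM in WT replicates 2 and 3 and at 50.1 TPM and 17.6 TPM in KO replicates 1 and 3. *Socs3* stood at 1.80 TPM, 15.0 TPM, 4.72 TPM and 1.33 TPM in the same order. The remaining genes among the 5 nearest (*Zfp968*, *Morc3* and *Gm14419*) were at or below 3.82 TPM in every library. With 4 libraries this is a description of likeness, and many genes can share such a pattern.

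**Figure D2:**
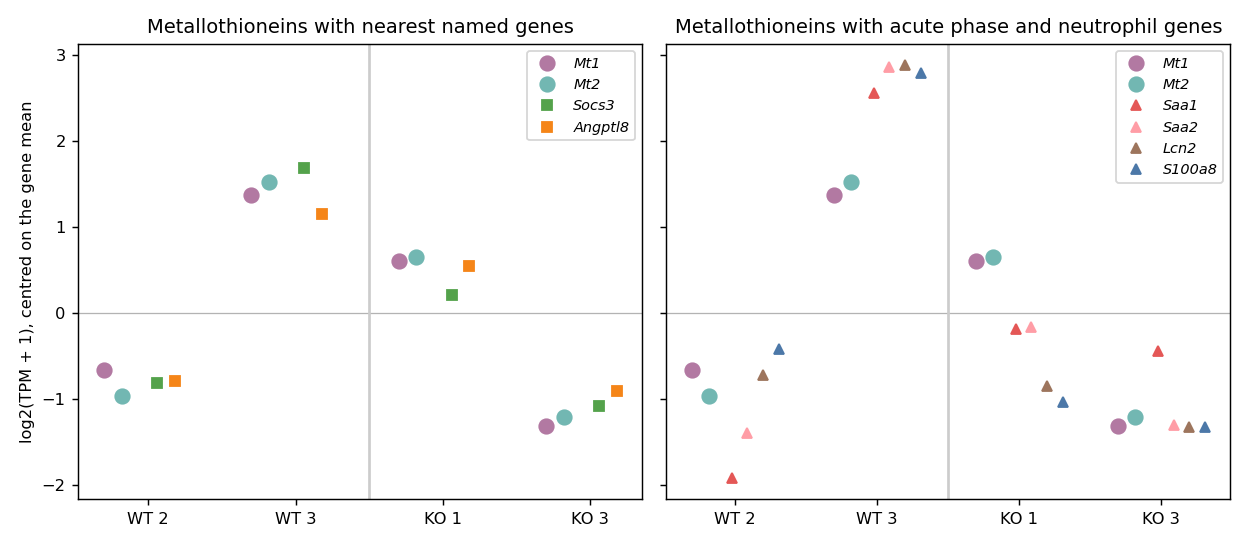
Expression on the log2(TPM + 1) scale centred on each gene's own mean, by library, for *Mt1* and *Mt2* (circles) with *Socs3* and *Angptl8* (squares, left) and with acute phase and neutrophil genes (triangles, right). All genes shown are highest in WT replicate 3, and in KO replicate 1 *Mt1*, *Mt2*, *Socs3* and *Angptl8* lie above their means and the 4 genes marked by triangles below.

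WT replicate 3, the library with the highest metallothionein levels, also held the highest levels of several acute phase and neutrophil genes, which were picked after their values were seen. *Saa1*, a serum amyloid of the acute phase, stood at 47.8 TPM in WT replicate 2, 1089 TPM in WT replicate 3, 162 TPM in KO replicate 1 and 135 TPM in KO replicate 3. *Lcn2*, an iron-trapping acute phase protein, stood at 67.1 TPM in WT replicate 3 and between 2.67 and 4.59 TPM elsewhere. The summed TPM of the 6 neutrophil markers, of which 2 passed the filter, was 44.8 in WT replicate 3 and between 2.27 and 4.31 in the other libraries. Most of the sum in WT replicate 3 came from *S100a8* (29.1 TPM) and *S100a9* (12.7 TPM). There *Camp* and *Ngp* were at 0, and *Retnlg* was at 1.66 TPM, against 1.46 TPM in WT replicate 2. KO replicate 1, with *Mt1* at 520 TPM, had *Lcn2* at 4.12 TPM and a neutrophil sum of 4.16 TPM. Other acute phase genes were high in that library: *Saa1*, *Saa2* (59.6 TPM against 24.7 TPM in WT replicate 2) and *Socs3* were second highest there. *Apcs* (224 TPM), the fibrinogen genes *Fga*, *Fgb* and *Fgg*, and *Hamp*, which encodes the iron hormone hepcidin (2084 TPM), were highest there. The part of these cells or of an acute phase response in the metallothionein levels was not tested.

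In the second deposited table, reads were counted per gene with HTSeq on aligned reads and scaled (TMM-normalized CPM). *Mt1* and *Mt2* were listed at 0 there in every library, as were 7 of the 8 genes. The antisense gene *Gm45774*, which was not in the TPM table, was listed at 668 CPM and 3743 CPM in WT replicates 2 and 3 and at 1523 CPM and 553 CPM in KO replicates 1 and 3, values recovered as 87, 408, 228 and 60 reads. Its order over the libraries was that of *Mt2* in the TPM table. Similarly, *Mtf1* was listed in that table with 33, 43, 27 and 28 reads (253 CPM, 394 CPM, 180 CPM and 258 CPM), whereas the protein-coding gene *1110065P20Rik*, which overlaps the end of *Mtf1* on the opposite strand, had 26.0 TPM, 30.5 TPM, 18.3 TPM and 22.7 TPM in the TPM table and between 0 and 7 reads in the CPM table. The opposite-strand genes of *Slc30a10* and *Slc30a1* did not have the order of these genes in the TPM table. In the same order of libraries, *Gm2061* over *Slc30a10* had 6, 1, 2 and 8 reads, with overlapping genotypes. *1700034H15Rik* over *Slc30a1* had 8, 3, 3 and 5 reads, also overlapping, and *4933401H06Rik* over *Slc39a8* had 0. Of 210 genes that reached 100 TPM throughout and had an annotated gene on the opposite strand, 85 had CPM above 0 in every library only for that opposite gene, 8 only for themselves, 19 for both and 98 for neither. The strand setting of the counting is not given in the sources used here, and its part in these zeros and in the *Mtf1* reads was not tested. Whether the reads listed for *Mtf1* came from *Mtf1* or from *1110065P20Rik* cannot be told from this table. The comparisons below therefore rest on the TPM values.

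*Mtf1* (ENSMUSG00000028890, chromosome 4, 124802104 to 124849800), which encodes the zinc sensor, was the least abundant of the 8 genes, with 1.70 TPM and 3.50 TPM in WT replicates 2 and 3 and 4.67 TPM and 3.85 TPM in KO replicates 1 and 3. The genotypes did not overlap, but KO replicate 3 exceeded WT replicate 3 only narrowly. The log2 difference was 0.59 with a standard error of 0.33 (limma, adjusted p = 0.536), and 0.22 once WT replicate 2 was dropped. By the CPM values its difference had the opposite sign, at -0.57 in edgeR's quasi-likelihood test (adjusted p = 0.821), on reads that may be those of *1110065P20Rik*, which was lower in both KO libraries by TPM. Of the *Mtf1* stretches of 31 bases, 7.77% were shared with *1110065P20Rik*. Metallothionein levels did not follow the order of *Mtf1*, whose lowest library was WT replicate 2.

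The exporters differed in direction. *Slc30a10* (ENSMUSG00000026614, chromosome 1, 185454848 to 185468762), the manganese exporter, stood at 4.02 TPM and 2.36 TPM in WT replicates 2 and 3 and at 6.63 TPM and 6.81 TPM in KO replicates 1 and 3. Both KO libraries lay above both WT libraries, and the KO values were close to each other. The KO mean was 2.11 times the WT mean (6.72 ± 0.131 TPM against 3.19 ± 1.17 TPM, SD, n = 2 per genotype), a log2 difference of 0.91 with a standard error of 0.28. The unadjusted p of 0.0194 did not pass correction over all tested genes (limma, adjusted p = 0.464). It was the largest of the 8 differences in size on the unscaled log2(TPM + 1) values, whereas with upper quartile scaling *Mt1* (-0.85) exceeded *Slc30a10* (0.80). With 5 rather than 1 added to the unscaled TPM, *Mt1* (-0.70) and *Mt2* (-0.55) both exceeded *Slc30a10* (0.52) in size. Dropping any single library left the difference of *Slc30a10* between 0.62 and 1.20.

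*Slc30a1* (ENSMUSG00000037434, chromosome 1, 191906767 to 191913247), the zinc exporter, stood at 7.47 TPM and 8.84 TPM in WT replicates 2 and 3 and at 6.44 TPM and 5.12 TPM in KO replicates 1 and 3. It was the one gene of the 8 whose KO values were both under the WT values, with a log2 difference of -0.44 and a standard error of 0.23 (limma, adjusted p = 0.522). *Slc30a1* and the metallothioneins are all known targets of MTF-1. Over these libraries *Slc30a1* spanned 5.12 to 8.84 TPM and *Mt1* spanned 137 to 890 TPM. The part of MTF-1 in these levels was not tested. WT replicate 3 was the highest and KO replicate 3 the lowest library for *Slc30a1* as for both metallothioneins, and the libraries between them were in another order. The ratio of *Slc30a10* to *Slc30a1* TPM, which no scaling of a library can move, was 0.538 and 0.267 in WT and 1.03 and 1.33 in KO. This ratio was chosen after its values were seen, and the two-sided exact permutation test gave p = 0.333, the smallest that 2 libraries against 2 allow. Both exporters lie on the chromosome of *Usp21*, 14.2 Mb (*Slc30a10*) and 20.6 Mb (*Slc30a1*) away from it. The targeted allele came from stem cells of a strain other than B6. Any linked sequence of that strain cannot be told apart here from the loss of *Usp21*. Its part in the differences of both exporters was not tested. Of the stretches of 31 bases, 8.94% were shared with other genes for *Slc30a10* and 8.38% for *Slc30a1*, the latter with its antisense gene *1700034H15Rik*.

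Among the importers, *Slc39a14* (ENSMUSG00000022094, chromosome 14, 70303469 to 70351425) stood at 14.2 TPM and 17.8 TPM in WT replicates 2 and 3 and at 28.6 TPM and 20.96 TPM in KO replicates 1 and 3. Both KO values exceeded the WT values, and KO replicate 1 was the highest. The log2 difference was 0.59 with a standard error of 0.24 and an unadjusted p of 0.0482 (limma, adjusted p = 0.472), and it was 0.38 without KO replicate 1. *Slc39a14* was not highest in WT replicate 3, the library with the highest *Saa1* and *Lcn2* levels.

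*Slc39a8* (ENSMUSG00000053897, chromosome 3, 135825279 to 135888572) stood at 9.69 TPM and 8.20 TPM in WT replicates 2 and 3 and at 11.9 TPM and 11.3 TPM in KO replicates 1 and 3. The groups did not overlap, and the log2 difference was 0.35 with a standard error of 0.21 (limma, adjusted p = 0.552). *Slc39a4* (ENSMUSG00000063354, chromosome 15, 76612383 to 76617384) stood at 27.8 TPM and 19.7 TPM in WT and at 17.1 TPM and 20.4 TPM in KO. Its groups overlapped, and the log2 difference of -0.31 with a standard error of 0.24 (limma, adjusted p = 0.629) was -0.08 without WT replicate 2. In WT *Slc39a14* was below *Slc39a4* in both libraries, with a ratio of 0.510 and 0.904, and in KO it was above, with a ratio of 1.67 and 1.03 (exact permutation p = 0.333, two-sided, the smallest possible). The ratio of *Slc39a14* to *Slc30a10* overlapped, at 3.52 and 7.55 in WT and 4.31 and 3.08 in KO (exact permutation p = 0.667, two-sided), and these ratios too were chosen after their values were seen.

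**Figure D3:**
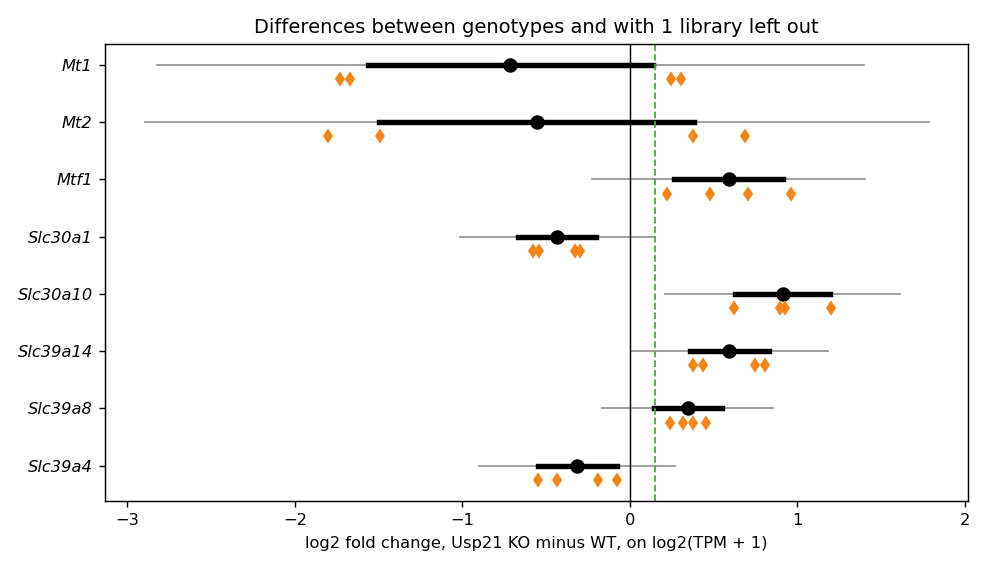
Log2 differences, KO minus WT, on the log2(TPM + 1) scale (black points) with the standard error (thick bars) and the 95% interval from limma (grey bars), and the differences with each library left out in turn (orange diamonds). The dashed line is the median of all tested genes (0.15). The diamonds of *Mt1* and *Mt2* fall on both sides of 0, and those of the other 6 genes stay on one side.

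By mean TPM over the 4 libraries, the 8 genes fell in the order *Mt1* (441 TPM), *Mt2* (281 TPM), *Slc39a4* (21.2 TPM), *Slc39a14* (20.4 TPM), *Slc39a8* (10.3 TPM), *Slc30a1* (6.97 TPM), *Slc30a10* (4.96 TPM) and *Mtf1* (3.43 TPM). *Mt1* exceeded *Mt2* in 4 of 4 libraries, *Mt2* exceeded *Slc39a4* in 4 of 4, and *Slc39a14* exceeded *Slc39a8* in 4 of 4. *Slc39a4* and *Slc39a14* changed places between libraries, as did *Slc30a1* and *Slc30a10*, each being higher in 2 of 4. *Slc39a8* exceeded *Slc30a1* and *Slc30a10* exceeded *Mtf1* in 3 of 4, and the ranges of both pairs overlapped.

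By limma with Benjamini-Hochberg adjustment, an adjusted p under 0.05 was reached by 0 of the 8 genes and by 0.0835% of all tested genes. Before adjustment 2 of the 8 had p under 0.05, *Slc30a10* and *Slc39a14*, against 10.5% of all tested genes (8.45% higher and 2.04% lower in KO). Without moderation of variances neither kept it, and with upper quartile scaling *Slc39a14* lost it and *Slc30a1* gained it. *Slc30a10* lost it without WT replicate 3 or either KO library, and *Slc39a14* without any library but KO replicate 3. The KO values both exceeded the WT values for 4 of the 8, against 34.4% of tested genes, and below for 1, against 10.9%, so 5 of 8 did not overlap against 45.3%. These counts are too small to set the 8 genes apart. On the log2(TPM + 1) scale a difference of at least 2-fold was found for 0 of the 8 and for 3.68% of tested genes, although the ratio of mean TPM was 2.11 for *Slc30a10*. The median log2 difference of the 8 was 0.02, and that of all tested genes was 0.15. Upper quartile scaling moved the latter to 0.04 and turned the direction of 0 of the 8 genes, and relative to the median of all genes the differences were 0.76 for *Slc30a10*, 0.44 for *Slc39a14*, 0.44 for *Mtf1*, 0.20 for *Slc39a8*, -0.46 for *Slc39a4*, -0.59 for *Slc30a1*, -0.71 for *Mt2* and -0.86 for *Mt1*.

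The other genes of metal handling showed no difference that passed correction. For comparison, 34.4% of all tested genes were above and 10.9% below WT in both KO libraries, with a median log2 difference of 0.15. *Mt3* and *Mt4*, metallothioneins of brain and of stratified epithelium, were listed at 0 in every library. Of the other 8 zinc exporters 5 could be tested, with 2 above and 0 below WT in both KO libraries and a median log2 difference of 0.07. *Slc30a4* had the lowest p, with 1.34 TPM and 1.08 TPM in WT and 2.92 TPM and 2.09 TPM in KO (log2 difference 0.66, limma, adjusted p = 0.478). *Slc30a2* and *Slc30a8*, zinc carriers of secretory cells, were listed at 0. Of the other 11 zinc importers 6 could be tested, with 1 above and 2 below WT in both KO libraries and a median of -0.18. *Slc39a3* was lower in both KO libraries (1.61 TPM and 1.80 TPM against 3.70 TPM and 2.37 TPM, log2 difference -0.56, limma, adjusted p = 0.516), and *Slc39a9* higher (0.49, limma, adjusted p = 0.516).

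Of the 6 genes of manganese handling and use, 3 were above and 1 below WT in both KO libraries, against 34.4% and 10.9% of all tested genes. The median log2 difference was 0.26, against 0.15 for all tested genes. The 3 above WT were *Tmem165*, a Golgi carrier needed for manganese supply (0.52), *Slc11a2*, the divalent metal carrier DMT1 (0.38), and *Golim4*, a Golgi protein that responds to manganese (0.42). The manganese enzymes themselves barely differed: *Sod2*, the mitochondrial superoxide dismutase, had a log2 difference of -0.05 and *Arg1*, the urea cycle arginase, one of 0.01. Of the 9 tested genes of copper handling, the median was 0.12, and *Atp7b*, which loads copper for export into bile, was at -0.31. In each of these 4 lists 0 genes had p under 0.05 even before adjustment, and under single alternatives at most 2 did.

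Glucocorticoid, fasting and the acute phase are among the signals known to raise metallothioneins, and genes that respond to each were followed alongside. Of 12 glucocorticoid-induced genes, 7 had an unadjusted p under 0.05 in limma, against 10.5% of all tested genes. The 7 comprised 6 higher and 1 lower in KO, against 8.45% and 2.04% of all tested genes. An adjusted p under 0.05 was reached by 0 of the 12. In both KO libraries 9 were above and 2 below WT, against 34.4% and 10.9% of all tested genes. The median log2 difference was 0.58, against 0.15 for all tested genes. *Zbtb16*, a zinc finger repressor, stood at 0.773 TPM and 0.904 TPM in WT and at 4.61 TPM and 2.83 TPM in KO (1.34, limma, adjusted p = 0.443). *Dusp1*, a phosphatase of MAP kinases, was at 0.92 and *Tsc22d3* (GILZ) at 0.78. *Per1*, which is also a clock gene, was the one of the 7 lower in KO, at -0.86. The number with an unadjusted p under 0.05 fell to 3 with upper quartile scaling, to 3 without moderation of variances and to 2 without WT replicate 2.

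Of 14 tested fasting-induced genes, 6 had an unadjusted p under 0.05 in limma, against 10.5% of all tested genes. All 6 were higher in KO, as were 8.45% of all tested genes with such a p. An adjusted p under 0.05 was reached by 0 of the 14. The median log2 difference was 0.67, against 0.15 for all tested genes. Among the 6 were *G6pc*, which releases glucose (1.85), *Lpin1*, a phosphatidate phosphatase (1.73), *Irs2*, an insulin receptor substrate (0.95), and *Pdk4*, a brake on glucose oxidation (1.00). The largest difference of the list went the other way: *Cyp4a14*, a fatty acid hydroxylase induced through PPARα, stood at 356 TPM and 21.6 TPM in WT and at 8.76 TPM and 20.7 TPM in KO (-2.63, limma, adjusted p = 0.496), and *Cyp4a10* of the same family was at -1.80. *Pck1* and *Igfbp1* stand in both lists, and the study picked *Lpin1* and *Ppargc1a* of this list and *Apcs* of the next from these libraries, so they are no independent evidence of direction. The count was 3 when WT replicate 2 was dropped and 0 without moderation of variances.

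Of 15 acute phase genes, 1 was higher and 1 lower in KO with an unadjusted p under 0.05, against 8.45% and 2.04% of all tested genes. The median log2 difference was -0.22, against 0.15 for all tested genes. *Apcs*, serum amyloid P, was at 1.43 and *Serpina3n*, a protease inhibitor, at -0.79. The median of these genes, centred on each gene's mean, was 0.57 in WT replicate 3, 0.10 in KO replicate 1, -0.25 in KO replicate 3 and -0.72 in WT replicate 2. The same value for the glucocorticoid-induced genes was -0.28 and -0.14 in WT replicates 2 and 3 and 0.23 in both KO libraries. The metallothioneins, with a high and a low library in each genotype, had the order of neither list. They shared with the acute phase genes WT replicate 3 as the highest and KO replicate 1 as the second highest library. The part of either signal in the metallothionein levels was not tested.

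**Figure D4:**
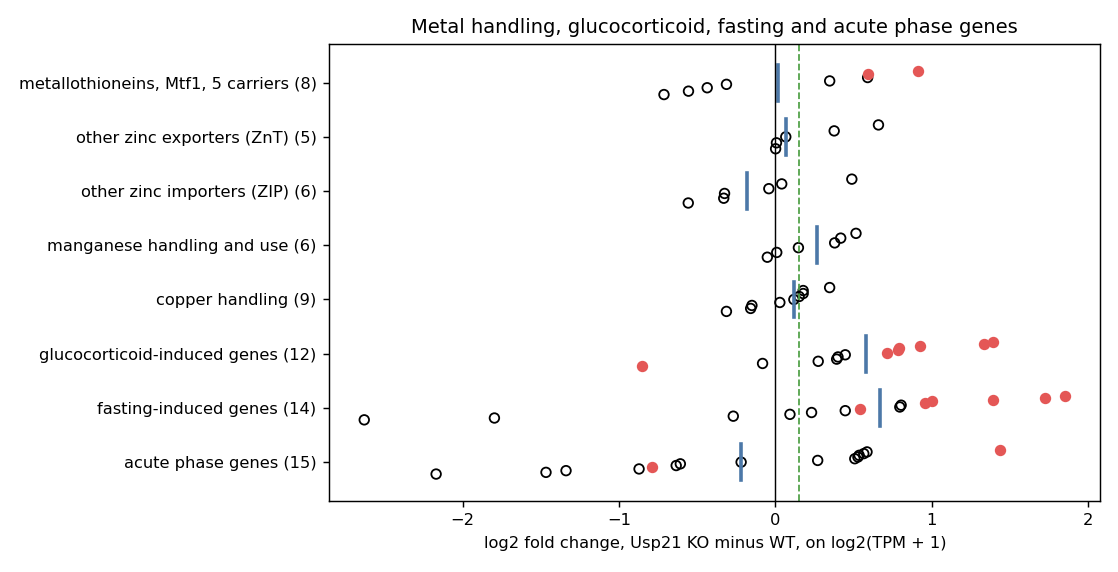
Log2 differences, KO minus WT, on the log2(TPM + 1) scale for the tested genes of each list (number in brackets), with an unadjusted p under 0.05 in limma in red, the list median as a blue bar and the median of all tested genes as a dashed line. The glucocorticoid and fasting lists have medians of 0.58 and 0.67, and those of the metal handling lists lie between -0.18 and 0.26.

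The tissue label held, with the 8 hepatocyte markers summing to between 57675 and 82178 TPM and 6 of 6 pancreatic acinar markers listed at 0. The 8 Kupffer cell markers summed to 145 TPM and 166 TPM in WT and 78.3 TPM and 203 TPM in KO, and the 8 endothelial markers to between 53.6 and 79.9 TPM. The 8 stellate and 6 cholangiocyte markers, of which 5 and 2 passed the filter, summed to more in both KO libraries (85.6 TPM and 64.4 TPM, and 38.0 TPM and 24.5 TPM) than in WT (55.5 TPM and 46.0 TPM, and 14.6 TPM and 15.9 TPM). Most of each sum came from 1 gene, *Dcn* (62.8 TPM and 48.4 TPM in KO) for stellate and *Spp1* (33.4 TPM and 20.7 TPM in KO) for cholangiocyte markers. Of the tested markers, 3 of 5 stellate and 1 of 2 cholangiocyte markers overlapped between genotypes. The others, 2 stellate and 1 cholangiocyte marker, were above WT in both KO libraries, as were 34.4% of all tested genes. These counts are too small to set either cell type apart. The sums went in the direction of *Slc30a10*, *Slc39a14* and *Slc39a8*, and the part of these cells in those differences was not tested. Erythroid markers summed to between 719 and 911 TPM. In bulk tissue, fewer cells of a type and less RNA per cell cannot be told apart. *Usp21* itself was at 4.07 TPM and 6.29 TPM in WT against 1.64 TPM and 2.93 TPM in KO (log2 difference -0.92, limma, adjusted p = 0.464).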

How the data were processed

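Liver RNA-seq of 2 WT and 2 *Usp21* KO libraries was analysed, with groups and replicate numbers taken from the labels. The authors deposited salmon TPM per gene (35739 genes), and HTSeq counts on mm10 alignments scaled by TMM, a count-based signal in CPM (55335 genes); the submitters' processing notes also name edgeR, Partek and deepTools, and versions, annotation and strand setting are not given in the sources used here. Log tables of both repeat these values and were not used, and the unmapped per-sample columns numbered 0. CPM values were whole multiples of 1 read (100% within 0.02 reads), giving between 102898 and 148164 recovered reads per library.

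Because the CPM table lists at 0 428 of the 682 genes that reach 100 TPM throughout, the TPM values were tested: log2(TPM + 1), mean of at least 1 TPM (9581 genes), limma 3.58.1 (lmFit, eBayes with trend, prior degrees of freedom 3.62), two-sided, Benjamini-Hochberg adjusted. Such fold changes understate those of low genes. edgeR 4.0.16 and DESeq2 1.42.0 were run on the recovered reads as alternatives. The scripts were tested on simulated data. The 8 genes, the lists, the tests and the alternatives were chosen with earlier results of these data known. All 8 genes are named, with at most 4 genes per list by p and the 5 nearest in pattern to *Mt1* and to *Mt2*. Genes named outside this rule were chosen after their values were seen. Coordinates are from GENCODE M21 (GRCm38) and promoter sequences from RefSeq (GRCm38.p6).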

Additional observations from a re-analysis of the deposited data

How the results depend on the processing

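No paired analysis was possible because the genotypes share only replicate number 3. Over the fits that drop 1 library, the log2 difference of *Mt1* ranged from -1.73 to 0.31 and that of *Mt2* from -1.80 to 0.69, positive without WT replicate 3 (0.31 and 0.69) and without KO replicate 3 (0.24 and 0.38). The value listed for *Mtf1* reversed on the CPM table, to -0.55 in limma, -0.57 in edgeR and -0.59 in DESeq2, on reads that may be those of the opposite-strand gene *1110065P20Rik*; the cause was not tested. The other 5 genes kept their direction under every alternative that gave a value, and 0 of the 8 reached an adjusted p under 0.05 under any of them (adjusted p from 0.403 to 0.998). The CPM table and its count tests gave values for *Mtf1* only, and a mean of at least 5 TPM removed *Mtf1* and *Slc30a10*. The number of all genes with an adjusted p under 0.05 was 8, and 4 with no filter, 0 without moderation of variances, 1 with limma on CPM, 1 with DESeq2, 12 with edgeR, 9 and 6 with pseudocounts of 0.1 and 5, and 0 with any library left out (542 to 1188 genes then had an unadjusted p under 0.05, and 806 without moderation). The number of the 8 genes with non-overlapping groups was 5, and 6 with upper quartile scaling and 6 or 7 with a library left out. The acute phase count with an unadjusted p under 0.05, 2 with all libraries, was 8 without WT replicate 2, 5 without WT replicate 3, 6 without KO replicate 3 and 0 without moderation. Without moderation 2 manganese genes and 1 copper gene had an unadjusted p under 0.05, and 1 gene each did without KO replicate 3 (zinc exporters and manganese), without KO replicate 1 (zinc importers) and without WT replicate 2 (copper). Counts of list genes were recomputed under these alternatives after the data were seen.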
